A study of Mus musculus with 6 samples.

Results

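The genes described here are 36 genes of glucose breakdown and of the response to low oxygen. They are 18 glycolytic enzymes and 18 genes that respond to the hypoxia-inducible factors (HIF) or belong to that pathway. The genes were chosen by name, with earlier results of these data known. Their counts set against all tested genes below are therefore descriptions, not independent evidence. They were read on the arrays through probe sets listed for exactly 1 gene symbol in the platform annotation, with the brightest probe set standing for a gene that has several. By this rule 32 of the 36 had a value, of 22180 genes in all, and 31 of these passed the filter on dim genes, of 13308 genes tested. Aldoa and Ankrd37 had probe sets only in common with another gene, Gpi1 and Eno1 had no probe set listed for them, and these 4 were not analysed here. Adm lay under the filter, so its values are given with no test.

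Mouse inner medullary collecting duct (IMCD) cells, cultured epithelium of the deep kidney, had been transduced with a lentiviral vector that encodes GFP and ILK, integrin-linked kinase, a scaffold of focal adhesions. In 1 group of 3 samples the vector carried wild-type ILK and in the other group of 3 it carried the missense variant T173I. Both groups were given 20 ng/ml EGF for 15 minutes, with RNA taken after 1 more hour of incubation, so every sample had been stimulated and carried an ILK vector, and no sample was labelled as grown at low oxygen. The labels call the samples of a group biological replicates, but the number of stable lines they came from was not given in the sources used here. With 1 line per group, line and variant cannot be told apart, and the p-values measure the spread between these samples.

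Glycolysis splits glucose into pyruvate, which is either reduced to lactate or oxidised in mitochondria. The alpha subunits of HIF are hydroxylated by prolyl hydroxylases when oxygen is plentiful and are then degraded. When oxygen is low they persist, pair with ARNT, bind the hypoxia response element in DNA and raise transcription of glucose transporters, most glycolytic enzymes, lactate exporters and genes of vessel growth. Tubule cells of the inner medulla live at low oxygen and draw much of their ATP from glycolysis.

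The hypoxia response element has the core ACGTG or GCGTG. Among genes with a single listed start site, all T173I arrays lay above the wild-type arrays for P4ha1, Hk2, Pgk1, Pgam1 and P4ha2. For Bnip3, also with a single start site, they lay on both sides. Promoters of P4ha1, Hk2, Pgk1 and Bnip3 are shown, picked after the values below were seen. Each is the 250 bases before the start of the gene in RefSeq, build GRCm38.p6, read 5′ to 3′ on the strand of the gene, with every core on either strand in capitals (on the opposite strand the cores read CACGT and CACGC). P4ha1 lies at chr10:59323046-59323295 (plus strand), Hk2 at chr6:82774455-82774704 (minus strand), Pgk1 at chrX:106186850-106187099 (plus strand) and Bnip3 at chr7:138909507-138909756 (minus strand).
P4ha1: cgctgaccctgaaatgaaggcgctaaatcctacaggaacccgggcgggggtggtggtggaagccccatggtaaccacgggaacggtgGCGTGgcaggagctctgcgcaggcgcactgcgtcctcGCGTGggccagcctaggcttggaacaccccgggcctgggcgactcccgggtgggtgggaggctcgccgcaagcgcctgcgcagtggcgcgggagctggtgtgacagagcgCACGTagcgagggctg
Hk2: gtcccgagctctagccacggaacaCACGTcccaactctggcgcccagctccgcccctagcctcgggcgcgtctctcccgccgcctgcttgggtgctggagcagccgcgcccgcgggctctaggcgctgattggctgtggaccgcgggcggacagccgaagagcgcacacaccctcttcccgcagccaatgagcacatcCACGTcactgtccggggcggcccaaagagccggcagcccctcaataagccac
Pgk1: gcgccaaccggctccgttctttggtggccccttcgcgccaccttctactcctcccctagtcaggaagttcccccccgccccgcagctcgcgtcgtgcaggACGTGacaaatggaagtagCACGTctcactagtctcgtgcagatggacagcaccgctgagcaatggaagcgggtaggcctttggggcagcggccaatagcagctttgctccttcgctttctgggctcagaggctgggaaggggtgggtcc
Bnip3: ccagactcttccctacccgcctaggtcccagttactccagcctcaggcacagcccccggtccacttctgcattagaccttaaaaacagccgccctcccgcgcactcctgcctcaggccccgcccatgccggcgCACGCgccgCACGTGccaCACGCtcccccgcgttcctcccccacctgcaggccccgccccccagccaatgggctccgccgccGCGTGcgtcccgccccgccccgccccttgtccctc

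The promoter of P4ha1 held 1 ACGTG and 2 GCGTG cores, that of Hk2 held 2 ACGTG cores and that of Pgk1 held 2. Bnip3 held 2 ACGTG and 3 GCGTG cores; its 2 ACGTG cores are both strands of a single CACGTG, the palindrome known as an E-box. Of the 36 genes 35 had at least 1 promoter entry, and Ndrg1 had none. ACGTG occurred in 13 of 24 promoters of the HIF group (54.2%) and in 11 of 30 promoters of the glycolytic group (36.7%), against 21.2% of 13211 promoters of genes tested on the arrays. With either core the shares were 83.3%, 76.7% and 54.1%. The HIF group was chosen for its response to HIF, so its share is not independent of that choice. These counts are of promoters, several for some genes, and both groups include genes with no test on the arrays. Both cores contain a CG dinucleotide, and the median number of CG was 19.5 in the HIF group, 14 in the glycolytic group and 15 in promoters of tested genes. The part that CG content has in these shares was not tested, and a match describes letters, not binding.

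Over all probe sets the median log2 signal of an array was 5.45 to 5.52. T173I arrays were less alike than wild-type arrays, with Pearson correlations over the tested genes of 0.964 to 0.983 between T173I arrays and 0.989 to 0.993 between wild-type arrays. Of 13 epithelial and collecting duct markers with a value, 10 lay above the filter, among them Cdh1, Epcam, Pax8 and, at lower levels, Aqp2; Aqp3, Elf5 and Tfap2b did not. At an unadjusted p under 0.05 were 4 of these 10 markers, against 10.2% of all tested genes. Krt19, Krt8 and Krt18, keratins of simple epithelia, were higher in T173I by 1.62, 0.64 and 0.44. The transcription factor gene Gata3 had a difference of -0.78. Above the filter were 2 of 7 fibroblast, 0 of 6 endothelial, 2 of 5 immune and 2 of 5 proximal tubule markers. Ptprc, the defining leukocyte marker, was at 3.55 to 3.81 on all arrays. The mean of the 5 immune markers was 5.51 to 5.83 in wild type and 5.59 to 5.79 in T173I, but the 2 above the filter differed in opposite directions at an unadjusted p under 0.05. Cd68, a lysosomal glycoprotein of macrophages, had a difference of 1.101 and Csf1r, the receptor of the macrophage growth factor CSF1, one of -0.78. No marker passed the adjusted threshold, and the part of these markers in the results below was not tested.

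Most of the genes were higher in T173I, by small amounts. A positive difference, here in log2 units, means a higher mean in T173I than in wild type. Of the 31 tested genes 25 had a positive difference, against 47.4% of all tested genes, and the median was 0.15 against -0.011 over all tested genes. P4ha1, Hk2 and Ak4 were higher by 0.90, 0.88 and 0.84, and Pgk1 and Ldha by 0.44 and 0.34. The other positive differences ran from 0.027 for Gapdh to 0.45 for Vegfa, and the 6 negative ones from -0.68 for Ndrg1 to -0.056 for Kdm3a. In 4 of the 31 the difference was at least 1.5-fold, against 4.04% of tested genes.

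In limma's fit over 13308 genes no gene had an adjusted p under 0.05 (0% of genes tested), so none of the 31 was called. At an unadjusted p under 0.05 there were 5 of the 31, all higher in T173I, namely Ak4, P4ha1, Ldha, Pgk1 and Hk2. Over all tested genes 1357 (10.2%) reached that level, 4.88% higher and 5.31% lower. Leaving out T173I replicate 1 gave 156 called genes (1.17%), of which Ak4 was the only member of the list, and 6 of 32 members past the unadjusted level (22.2% of tested genes). Leaving out T173I replicate 2 raised the members past the unadjusted level to 11 of 31, with none called, while the share of all tested genes there was 7.65%. In 7 of the 31 genes all 3 T173I arrays lay above all 3 wild-type arrays, against 7.23% of tested genes, and in 0 they all lay below, against 7.95%. These 7 were Hk2, Pgk1, Pgam1, Ldha, P4ha1, P4ha2 and Ak4.

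**Figure D1:**
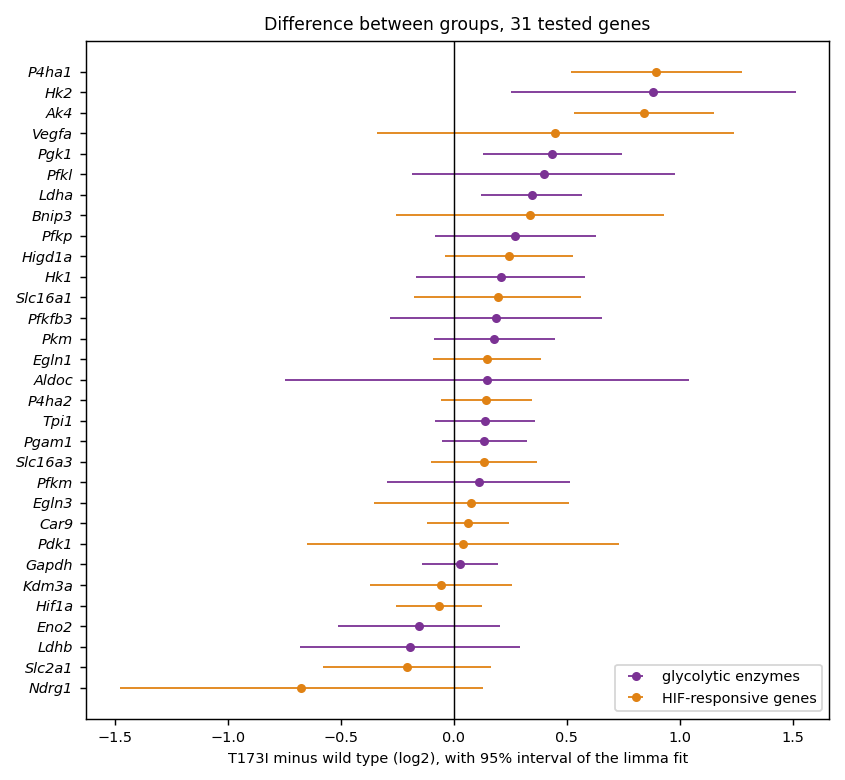
Difference between groups (T173I minus wild type, log2, horizontal axis) for the 31 tested genes, ordered by size, with 95% intervals of the limma fit over 3 arrays a group. Intervals of Ak4, P4ha1, Ldha, Pgk1 and Hk2 lie above 0, those of the other 26 include 0, and no gene passed the adjusted threshold.

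Both groups of genes leaned the same way. Of 15 glycolytic enzymes 13 had positive differences with a median of 0.18, and of 16 HIF-group genes 12 had, with a median of 0.14. The range was wider in the HIF group, from -0.68 to 0.90, than among the enzymes, from -0.20 to 0.88. The groups differed in which T173I array was high, as the medians by array below show. Whether the glycolytic and HIF groups differ was not tested.

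Entry of glucose was represented by Slc2a1, which encodes the glucose transporter GLUT1. Its log2 signal was 11.14, 10.93 and 10.65 on wild-type replicates 1, 2 and 3 and 10.90, 10.68 and 10.51 on the T173I arrays in the same order. The groups overlapped, and the difference was -0.21 with a 95% interval of -0.58 to 0.17. A dimmer probe set of Slc2a1 read 6.20 to 6.29 in wild type and 6.01 to 6.08 in T173I, also lower. Slc2a1 is a textbook HIF target, and both of its probe sets had lower means in T173I.

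Hexokinases trap glucose in the cell by phosphorylation. Hk2, the inducible isoenzyme, was at 7.34, 7.46 and 7.78 on the wild-type arrays and 7.94, 8.96 and 8.32 on T173I replicates 1, 2 and 3. Replicate 1 lay 0.16 above the highest wild-type array and replicate 2 was the highest of all. The difference was 0.88 (1.84-fold) with an interval of 0.25 to 1.51 and an adjusted p of 0.45. Leaving out single arrays moved it between 0.60, without T173I replicate 2, and 1.12, without T173I replicate 1. Hk1, the constitutive isoenzyme, was at 7.67 to 8.18 in wild type and 8.07 to 8.37 in T173I, a difference of 0.21 with an interval of -0.17 to 0.58.

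Phosphofructokinase commits sugar to glycolysis. Pfkl, the liver-type subunit, was at 9.10, 9.36 and 8.98 in wild type and 10.08, 9.15 and 9.40 on T173I replicates 1, 2 and 3. Only replicate 1 stood well clear of the wild-type arrays; the difference of 0.40 became 0.13 without it. Pfkp, the platelet-type subunit, had the same shape, with 8.15, 8.25 and 8.37 in wild type and 8.84, 8.37 and 8.37 in T173I, where replicates 2 and 3 were level with the highest wild-type array. Pfkm, the muscle-type subunit, overlapped, at 8.13 to 8.69 in wild type and 8.33 to 8.59 in T173I. Pfkfb3 makes fructose 2,6-bisphosphate, the activator of phosphofructokinase. It was at 6.42, 6.60 and 6.47 in wild type and 6.42, 7.14 and 6.48 in T173I, so that replicate 2 alone was high. Without that array its difference of 0.19 turned to -0.044.

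The middle steps held the brightest gene of the list, Gapdh, and also Aldoc, with the widest span on the T173I arrays (1.42). Aldoc, an aldolase, was at 9.54, 9.98 and 9.54 in wild type and at 10.36, 8.94 and 10.20 on T173I replicates 1, 2 and 3. Replicates 1 and 3 lay above every wild-type array and replicate 2 below every one; the values of Aldoc and Bnip3 are given in full because of this spread, a choice made after they were seen. Tpi1, triosephosphate isomerase, was at 12.13 to 12.20 in wild type and 12.16 to 12.42 in T173I. Gapdh, the dehydrogenase often used as a reference gene, was at 13.34, 13.32 and 13.33 in wild type and 13.39, 13.35 and 13.32 in T173I. Its signal was near the top of the table, where the maximum, 13.7, came from a probe set listed for both Gapdh and Gm12070. The other 2 Gapdh probe sets listed for 1 gene symbol had differences of 0.016 and -0.015.

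Pgk1, phosphoglycerate kinase, makes the first ATP of the pathway. It was at 11.36, 11.59 and 11.38 in wild type and at 12.09, 11.68 and 11.87 on T173I replicates 1, 2 and 3. All T173I arrays lay above the wild-type arrays, replicate 2 by 0.092. The difference was 0.44 (1.35-fold), with an interval of 0.13 to 0.74 and an adjusted p of 0.45.

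Pgam1, phosphoglycerate mutase, was at 11.11, 11.11 and 10.97 in wild type and 11.16, 11.21 and 11.23 in T173I. The groups did not overlap, by 0.051, and a dimmer probe set disagreed, with a difference of -0.031. Eno2, a neuronal-type enolase, was at 6.20 to 6.76 in wild type and 6.20 to 6.39 in T173I. Pkm, pyruvate kinase, was at 11.92, 12.15 and 12.07 in wild type and 12.33, 12.31 and 12.05 in T173I, where replicate 3 lay within the wild-type range. Many of these enzymes have processed pseudogenes in the mouse genome, so some of their probes may also bind related transcripts.

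**Figure D2:**
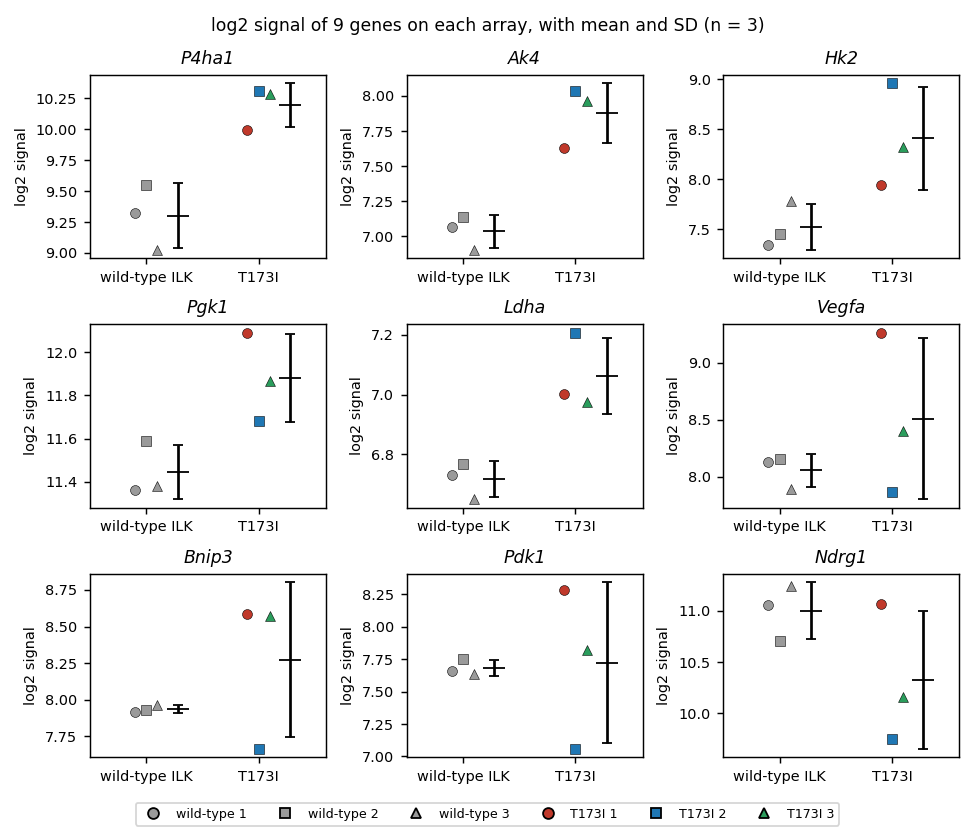
log2 signal (vertical axes, a separate scale for each gene) of 9 genes on the 3 wild-type and 3 T173I arrays, with the mean and SD of each group. P4ha1, Ak4, Hk2, Pgk1 and Ldha are above the wild-type arrays on all T173I arrays, while Vegfa, Bnip3 and Pdk1 have replicates 1 and 3 above and replicate 2 below them and Ndrg1 has replicates 2 and 3 below them.

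Lactate dehydrogenase converts pyruvate and lactate into each other. Ldha, the subunit that favours lactate formation and is induced by HIF, was at 6.73, 6.77 and 6.65 in wild type and 7.001, 7.21 and 6.97 in T173I. The T173I arrays lay at least 0.21 above the wild-type arrays. The difference was 0.34 (1.27-fold), with an interval of 0.12 to 0.57 and an adjusted p of 0.45, and ran from 0.27 to 0.39 when single arrays were left out. Ldhb, the subunit of oxidative tissues, had a difference of the other sign, -0.20 with an interval of -0.68 to 0.29, and its arrays overlapped, at 7.79 to 8.31 in wild type and 7.59 to 8.18 in T173I.

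Lactate leaves the cell through monocarboxylate transporters. Slc16a1, which encodes MCT1, was at 10.58 to 10.99 in wild type and 10.86 to 11.26 in T173I. Slc16a3, which encodes the exporter MCT4, was dim, at 5.81 to 5.89 in wild type and 5.83 to 6.14 in T173I. Neither difference, 0.19 and 0.13, had an interval clear of 0.

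Pdk1 inhibits pyruvate dehydrogenase and so keeps pyruvate out of the citric acid cycle. It was at 7.66, 7.75 and 7.63 in wild type and at 8.28, 7.06 and 7.82 on T173I replicates 1, 2 and 3. The wild-type arrays spanned 0.12, while T173I replicate 1 lay above them and replicate 2 far below. The difference between group means was 0.039, with an interval of -0.65 to 0.73, and was -0.24 without replicate 1 and 0.37 without replicate 2. A very dim second probe set of Pdk1, at 3.598 to 4.41, had a difference of 0.34.

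Hif1a RNA, which encodes the oxygen-labile subunit HIF-1alpha, was at 10.22, 10.10 and 10.27 in wild type and 10.11, 10.14 and 10.14 in T173I. The T173I arrays lay within the wild-type range, and the difference was -0.067 with an interval of -0.26 to 0.12. A dimmer probe set had a difference of 0.043. HIF-1alpha is controlled mainly through its protein, which arrays do not measure. Egln1 and Egln3, the prolyl hydroxylases PHD2 and PHD3, are themselves HIF targets; they were at 9.18 to 9.37 and 8.08 to 8.64 in wild type and at 9.31 to 9.56 and 8.23 to 8.66 in T173I, with overlap in both.

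Among HIF targets that act at mitochondria, Ak4 stood highest in the list by p. Ak4, a mitochondrial adenylate kinase, was at 7.07, 7.14 and 6.91 in wild type and 7.63, 8.04 and 7.96 on T173I replicates 1, 2 and 3. The groups were 0.50 apart at their closest, the widest gap of the 31 genes. The difference was 0.84 (1.79-fold), with an interval of 0.53 to 1.15 and an adjusted p of 0.43, and 0.96 with an adjusted p of 0.027 without T173I replicate 1. Over the 14 alternatives tried its adjusted p ran from 0.027 to 0.84, and only that without T173I replicate 1 was under 0.05.

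Bnip3, a mitophagy receptor, had nearly the same level on the wild-type arrays, 7.91, 7.93 and 7.96. T173I replicates 1 and 3 were at 8.58 and 8.57, and replicate 2 was at 7.66. Replicates 1 and 3 lay 0.61 or more above every wild-type array and replicate 2 below all of them. The difference was 0.34 with an interval of -0.26 to 0.93, and 0.64 without replicate 2 (adjusted p = 0.41, with 0.15 to 0.85 over the alternatives). Higd1a, a factor of the respiratory chain, had a similar but smaller split, with 6.47, 6.45 and 6.34 in wild type and 6.72, 6.44 and 6.84 in T173I.

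P4ha1 and P4ha2 encode catalytic subunits of collagen prolyl 4-hydroxylase, which stabilises the collagen helix and uses oxygen to do so. P4ha1 was at 9.33, 9.55 and 9.03 in wild type and 9.99, 10.31 and 10.29 in T173I. The T173I arrays lay at least 0.44 above the wild-type arrays. The difference was 0.90 (1.86-fold), with an interval of 0.52 to 1.27 and an adjusted p of 0.43, and from 0.76 to 1.02 when single arrays were left out. P4ha2 was at 6.37, 6.42 and 6.53 in wild type and 6.67, 6.54 and 6.54 in T173I, a separation of only 0.0098.

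Vegfa encodes the growth factor that draws blood vessels to hypoxic tissue. It was at 8.13, 8.15 and 7.89 in wild type and at 9.26, 7.86 and 8.40 on T173I replicates 1, 2 and 3. Replicate 1 was 1.13 above the mean of the other T173I arrays, the largest such gap of the 32 genes, and replicate 2 was below every wild-type array. The difference of 0.45 was 0.072 without replicate 1 and 0.77 without replicate 2. Adm, the vasodilator peptide adrenomedullin, went the other way. It was at 5.16, 5.31 and 5.34 in wild type and 4.78, 6.11 and 5.17 in T173I, so that replicate 1 was the lowest array and replicate 2 the highest.

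Ndrg1, a stress-response gene induced by hypoxia, was at 11.06, 10.70 and 11.25 in wild type and 11.07, 9.75 and 10.16 on T173I replicates 1, 2 and 3. Replicate 1 lay within the wild-type range and replicates 2 and 3 below it. The difference was -0.68 with an interval of -1.48 to 0.13, and -1.05 without replicate 1 (adjusted p = 0.073, the lowest of alternatives that reached 0.84). A dimmer probe set of Ndrg1 also had a negative difference, -0.47. Car9, the carbonic anhydrase often used to mark hypoxic cells, was at 5.60, 5.65 and 5.52 in wild type and 5.66, 5.62 and 5.67 in T173I, near the filter level of 5.37. A dimmer probe set of Car9 read 4.86 to 5.13 in wild type and 5.13 to 5.61 in T173I, a difference of 0.33. Kdm3a, a histone demethylase, was at 9.41 to 9.49 in wild type and 9.10 to 9.55 in T173I.

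**Figure D3:**
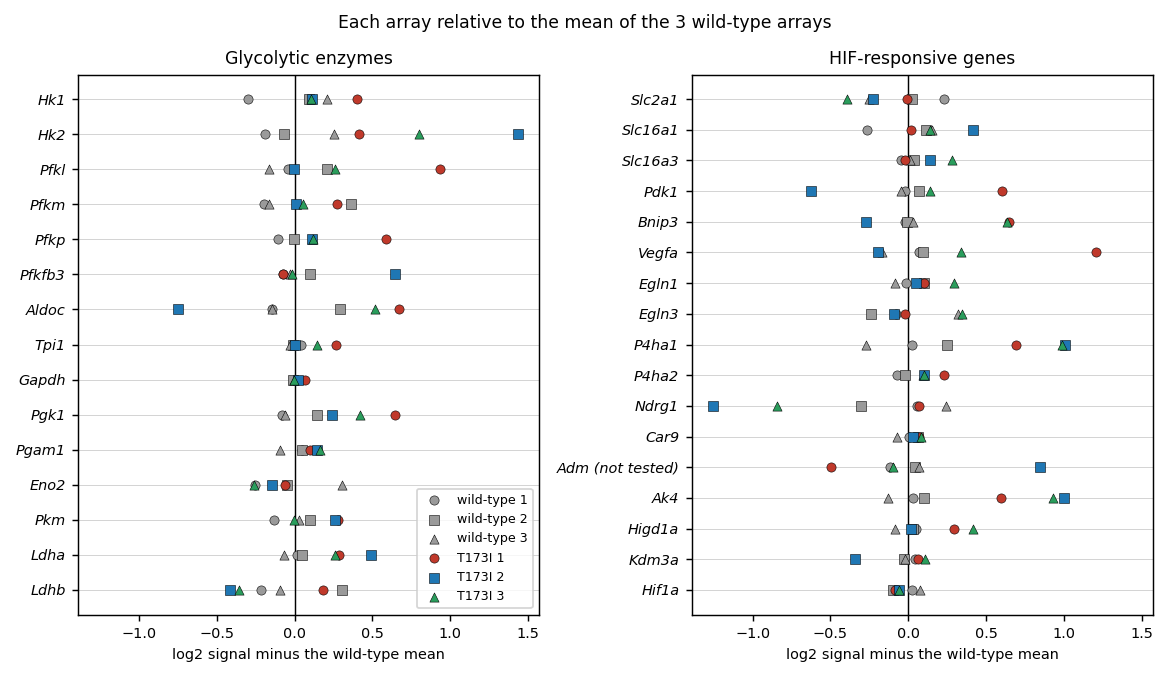
log2 signal of each array minus the mean of the 3 wild-type arrays (horizontal axis) for the 15 glycolytic enzymes and 17 HIF-group genes with a value. Grey marks are wild-type arrays and coloured marks T173I arrays; replicate 1 is furthest right for Vegfa, Pfkl and Pgk1, and replicate 2 for Hk2, Adm and Pfkfb3.

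The T173I arrays only partly carried the same genes high. In 7 of the 31 genes (7.23% of tested genes) all 3 lay above every wild-type array. Most genes above the wild-type arrays on replicate 1 were above them on replicate 3 too. In Aldoc, Pdk1, Bnip3, Vegfa and Kdm3a replicates 1 and 3 lay above the wild-type arrays and replicate 2 below them. Replicate 1 lay above all 3 wild-type arrays in 20 of the 31 genes (29.1% of tested genes), replicate 2 in 12 (31.2%) and replicate 3 in 20 (29.7%). Replicate 2 lay below all of them in 7 (39.8%). Replicate 1 was the highest of the 6 arrays for 12 of 31 genes, against 19% of all tested genes, and these were 8 of 15 enzymes and 4 of 16 HIF-group genes. Replicate 2 was the highest for 6 genes (23% of tested genes) and replicate 3 for 7 (16.2%), 6 of the latter in the HIF group. Replicate 1 was the lowest array for 0 of the 31 genes, against 13.9% of tested genes. Replicate 2 was the lowest for 7, against 31.7%, namely Aldoc, Ldhb, Pdk1, Bnip3, Vegfa, Ndrg1 and Kdm3a.

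Set against the wild-type mean, the glycolytic enzymes had medians of 0.28, 0.11 and 0.12 on T173I replicates 1, 2 and 3, where the wild-type arrays had -0.11, 0.091 and -0.030. The median of the HIF group was 0.085, -0.020 and 0.21 on the T173I arrays and 0.016, 0.033 and -0.033 on the wild-type arrays. The medians of the enzymes were thus all above the wild-type arrays, those of replicates 2 and 3 by little. The HIF group on replicate 2 lay within the wild-type range. Over all tested genes the medians were between -0.025 and 0.0088 on every array.

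**Figure D4:**
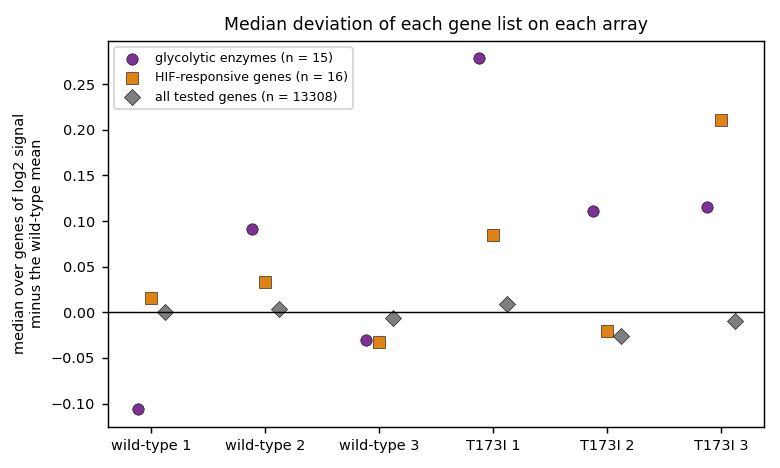
Median over genes of the log2 signal minus the wild-type mean (vertical axis) on each array, for 15 glycolytic enzymes, 16 HIF-group genes and 13308 tested genes. The enzymes are highest on T173I replicate 1 (0.28) and the HIF group on T173I replicate 3 (0.21), with all tested genes near 0.

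T173I replicate 1 exceeded the mean of replicates 2 and 3 in 20 of 31 genes, against 55.5% of all tested genes, with a median gap of 0.14 against 0.033. Among the enzymes this held for 11 of 15 with a median of 0.19, and in the HIF group for 9 of 16 with a median of 0.045. The largest gaps were those of Vegfa (1.13), Ndrg1 (1.12), Pdk1 (0.85) and Pfkl (0.81). The most negative were those of Adm (-0.87) and Hk2 (-0.70). Ak4 and P4ha1 also had lower values on replicate 1 than on the others, by 0.37 and 0.31. With 1 array on that side there is no test of these gaps.

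Without T173I replicate 1 the medians of the groups were 0.11 for the enzymes and 0.13 for the HIF genes, and without replicate 3 they were 0.26 and 0.067. The SD between arrays was larger in T173I than in wild type for 20 of 31 genes, close to the 70.6% of all tested genes.

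Of 6 further lists around these pathways, none had a member past the adjusted threshold. Of 24 other tested HIF-responsive genes 14 had positive differences, against 47.4% of all tested genes, with a median of 0.078. At an unadjusted p under 0.05 were 7 of them, 6 with higher and 1 with lower signal. Over all tested genes 10.2% reached that level, 4.88% higher and 5.31% lower. Plod2, a collagen lysyl hydroxylase, was at 8.47 to 8.65 in wild type and 8.77 to 8.998 in T173I, a difference of 0.33. Anln, an actin-binding protein of cell division, was higher by 0.44, and Rora, a nuclear receptor, had a difference of -0.46. Relative to the wild-type mean, that list had a median of 0.25 on the first T173I array, -0.11 on the second and -0.054 on the third.

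Of 11 genes of HIF subunits and oxygen sensing 5 had positive and 6 negative differences, with a median of -0.048, and 0 passed at an unadjusted p under 0.05 in limma's fit. Egln2, the prolyl hydroxylase PHD1, had -0.29, Siah2, a ubiquitin ligase that targets prolyl hydroxylases, 0.14, and Hif1an, the asparagine hydroxylase FIH, -0.16. Of 15 other genes of glycolysis and gluconeogenesis 7 were positive, with a median of -0.028. Galm, galactose mutarotase, had -0.67, Pck2, the mitochondrial PEP carboxykinase, 0.39 and Tigar, a fructose bisphosphatase, 0.43. Galm and Pck2 were the only 2 of that list at an unadjusted p under 0.05, against 10.2% of all tested genes.

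Of 12 genes that govern entry of pyruvate into mitochondria 4 were positive, with a median of -0.068. Pdk4, a kinase that inhibits pyruvate dehydrogenase, was at 6.396 to 6.92 in wild type and 5.78 to 6.18 in T173I, a difference of -0.55. Pdp2, the phosphatase that reactivates it, was higher by 0.35 and Pdha1, a subunit of the enzyme, by 0.31. Pdk4 and Pdp2 were the only 2 of that list at an unadjusted p under 0.05, against 10.2% of all tested genes. Neither the 5 tested genes of the pentose phosphate pathway nor the 6 of other hexose and monocarboxylate carriers had any there, with medians of 0.073 and 0.018. Of these, Pgd, a dehydrogenase of the pentose phosphate pathway, was higher by 0.32, and Emb, an escort protein of monocarboxylate transporters, had -0.78.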

How the data were processed

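RNA from 6 samples was measured on Affymetrix whole-transcript arrays, 1 array per sample. The deposited values are log2 signals. The authors' method was RMA, per the submitters' processing notes, in a version not given in the sources used here. RMA makes the arrays' signal distributions alike, so a shift of most transcripts would not be seen. The table held 41345 probe sets, 23521 of them with 1 gene symbol, 1814 with several and 16010 unnamed here. The brightest probe set stood for each of 22180 genes, and the 40% with the lowest mean (log2 5.37 or less) were left out, which left 13308.

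Groups were compared with limma 3.58.1 (R 4.3.3), two-sided, with lmFit and eBayes over all 6 arrays and no covariate. P-values were adjusted over all genes tested by the Benjamini-Hochberg method, with a threshold of 0.05. On simulated data with 100 genes changed 2-fold and 100 changed 4-fold among 13308, the fit recovered 82% and 89%, with 4 false calls. The simulated noise was normal, independent between genes and of the same SD in both groups. In the data the SD was larger in T173I for 70.6% of tested genes, so these rates may not hold here. The 36 genes and the other lists were chosen with earlier results of these data known.

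Values on every array are given for the 12 genes with the smallest p, the 4 with the largest and 2 with the smallest gap between T173I replicate 1 and the other T173I arrays, and 10 pathway landmarks; the rest are given as ranges. From each other list up to 3 genes with the smallest p were named. Alternatives covered the filter, the probe set rule, the eBayes prior, normalization, array weights, the replicate block and leaving out each array. Number of arrays limits the precision.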

Additional observations from a re-analysis of the deposited data

How the results depend on the processing

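No gene was called under any alternative that kept all 6 arrays; without T173I replicate 1, 156 genes and 1 member (Ak4) were called, and the ranges over leaving out single arrays were 0 to 156 genes and 0 to 1 member. The count of members past the unadjusted level was 5, and 5 to 11 over leaving out single arrays, 9 with array weights and 5 or 6 otherwise. Over all tested genes the count at that level was 1357 (10.2%), 2856 (21.5%) with array weights and 1018 (7.65%) without T173I replicate 2, which gave the 11 members. With the replicate number as a block, 0 genes were called, 6 members passed the unadjusted level, and the medians were 0.18 and 0.14. Same-numbered arrays had correlations of their deviations of only 0.048 to 0.067, and not every array correlated best with its own number, so the numbers were not taken as pairs. The medians of the groups of genes moved by less than their spread between T173I arrays, from 0.11 to 0.26 for the enzymes and from 0.067 to 0.17 for the HIF genes. Of 31 tested genes 25 kept the sign of their difference under each alternative that tested them, which was all 14 for most and 13 for the genes that a stricter filter removed. With array weights Pfkm had -0.024 and Kdm3a 0.047. Over leaving out single arrays, Aldoc ran from -0.12 to 0.59, Pdk1 from -0.24 to 0.37, Pfkfb3 from -0.044 to 0.31, Egln3 from -0.058 to 0.23 and Kdm3a from -0.14 to 0.085. The cause of these shifts was not tested. Dim genes such as Car9, Slc16a3 and Adm lie close to the filter, which limits what a small difference shows.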

Other observations

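The probe sets that list a member together with another gene belong to no comparison above. Those of Ankrd37 and Aldoa, which have no other probe set here, are given in full. A probe set listed for both Lrp2bp and Ankrd37, the latter a short ankyrin-repeat protein induced by HIF, read 6.02, 5.88 and 5.84 on the wild-type arrays and 6.44, 6.60 and 7.12 on T173I replicates 1, 2 and 3. All T173I arrays lay above the wild-type arrays, and the difference was 0.81. A probe set listed for both Aldoa, the main aldolase of glycolysis, and Aldoart1 read 5.92, 6.004 and 5.89 in wild type and 6.44, 6.24 and 6.23 in T173I, also with no overlap and a difference of 0.37. Over all tested genes 7.23% had every T173I array above the wild-type arrays. The other shared probe sets did not separate the groups. Those of Hk1 with Hk1os and Slc16a3 with Csnk1d had differences of 0.077 and 0.083. That of Hif1a with S100a11-ps had 0.13, and those of Gapdh ran from 0.016 to 0.36. Which of the listed genes gave these signals was not tested, and no shared probe set was part of the fit.

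Among single-gene values, Bnip3 spanned 0.050 log2 units on the wild-type arrays and 0.92 on the T173I arrays.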
